A study of Mus musculus with 8 samples.

Results

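Messenger RNA of 10 genes of the class I antigen presentation pathway was compared between CD249+ and CD249− lung cells, labelled as fibroblasts, sorted from the same mice. The genes were chosen by name as the 2 classical class I heavy chains of this mouse strain, H2-K1 and H2-D1, their partner B2m, the peptide transporter and its adaptor (Tap1, Tap2, Tapbp), the 3 inducible proteasome subunits (Psmb8, Psmb9, Psmb10) and the class I transactivator Nlrc5, and all 10 were found among the 25509 mouse genes of the table. Earlier results of these data were known when they were chosen. The CD249+ group held 4 libraries and the CD249− group 4, from wild-type C57Bl6/J mice numbered 2, 7, 8 and 10, with a pair of libraries from each lung. Cells of both groups were lung cells negative for CD45, CD326 and CD31, the surface markers of leukocytes, epithelium and endothelium, and the groups differed by surface CD249, the peptide-trimming enzyme glutamyl aminopeptidase. The labels used here give neither age nor sex of the mice, and each fraction is defined by surface staining, so it can hold several kinds of cell. Summed over marker lists, CD249+ libraries held 16453 to 28611 CPM (counts scaled to library size by TMM) of 12 fibroblast markers and 7426 to 14687 CPM of 24 endothelial markers. CD249− libraries held 5829 to 13939.9 CPM of the fibroblast and 23850.0 to 32025 CPM of the endothelial markers. The endothelial sum was thus the larger in CD249− libraries, which goes against their label, though the lists differ in size and the sums are not per length. Libraries held 23011383 to 31906414 estimated counts with 15456 to 16526 genes detected. Enpep, which encodes CD249, gave 239.6, 221, 175 and 329 CPM in the CD249+ fraction of mice 2, 7, 8 and 10, against 7.54, 5.99, 5.13 and 17.3 CPM in CD249− cells.

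Class I molecules show short peptides from the cell's own proteins to CD8 T cells. Proteasomes cut those proteins, and subunits induced by interferon gamma (Psmb8, Psmb9 and Psmb10) can take the place of the standard catalytic subunits. The peptides are pumped into the endoplasmic reticulum by the Tap1 and Tap2 transporter, and tapasin (Tapbp) holds an empty heavy chain beside it until a peptide binds. Each heavy chain needs beta-2 microglobulin (B2m) to reach the surface. Nlrc5 raises transcription of class I heavy chain genes and B2m through a composite promoter element to which RFX, CREB family and NF-Y factors bind.

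The part of that element with the CREB-family and NF-Y motifs is shown here for the 3 genes that make up the surface molecule. They were chosen because they were lower together in CD249+ cells. The RFX site was not searched for. RefSeq windows of the 250 bases before the transcription start (build GRCm38.p6) were held for 8 of the 10 genes, all but Tap2 and Nlrc5. Each line gives 30 bases 5′ to 3′ in the direction of transcription, with capitals marking the CREB-family core TGACG and the inverted CCAAT box ATTGG. The stretches lie at chr17:34000359-34000388 on the minus strand for H2-K1, chr17:35262993-35263022 on the plus strand for H2-D1 and chr2:122147609-122147638 on the plus strand for B2m. The H2-D1 stretch, like the one shown further below, lies before the RefSeq start. Both are inside the gene span annotated in GENCODE M21, which begins at 35262730.
H2-K1: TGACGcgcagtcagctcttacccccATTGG
H2-D1: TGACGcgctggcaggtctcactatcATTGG
B2m: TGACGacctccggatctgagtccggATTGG
In all 3 promoters exactly 20 bases separated the capitals. The same pair of motifs at the same spacing, on either strand, was found in 30 of 32851 promoter windows (0.0913%). Among the members with a window it was found in these 3 of 8, and among the other class I and class I-like genes in H2-M3 alone of 16. Of the class II presentation genes 0 of 9 held it. The spacing was read from these 3 sequences after their values were known, so their matches were fixed in advance and the counts test nothing. The share of all promoters counts windows, and the counts in the lists are of genes. A match is a description of letters, not of binding.

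A further element upstream is shown because it carries the motifs of the interferon and NF-kappa-B pathways. In H2-K1 (chr17:34000429-34000458, minus strand) and H2-D1 (chr17:35262923-35262952, plus strand) the first capitals are the kappa-B site and the second the IRF core AANNGAAA read on the other strand. In B2m (chr2:122147550-122147579, plus strand) the order is turned round, with the IRF core first and the kappa-B site, on the other strand, after it.
H2-K1: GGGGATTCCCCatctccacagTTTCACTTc
H2-D1: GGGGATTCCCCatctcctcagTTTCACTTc
B2m: AACTGAAAatgGGAAAGTCCCtttgtaacc
The H2-K1 and H2-D1 stretches were the same at 29 of 30 bases, and their stretches from TGACG to ATTGG at 23 of 30. On both strands, the kappa-B consensus matched 7.25% of all windows and the IRF core 21.3%, and of the 8 members with a window only H2-K1, H2-D1 and B2m held either. CCAAT alone matched 33.8% of windows and 6 of the 8 members, and TGACG alone matched 17.8% of windows and 5 of the 8. The motifs did not overlap in the stretches printed.

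All 10 genes were lower in CD249+ than in CD249− cells, in each of the 4 mice, which makes 40 of 40 within-mouse comparisons, and 26.5% of all genes tested were lower in all 4 mice. All 10 passed the test (edgeR's quasi-likelihood test with mouse as a block, adjusted over 14524 genes, called at an adjusted p under 0.05), while 17.1% of all genes tested were called lower, 19.3% higher and 36.5% in either direction. The median log2 fold change of the members was -0.95, and that of all genes tested was -0.025. Levels of 9 members did not overlap between the fractions, a pattern shown by 15.8% of all genes tested, and Nlrc5 was the exception. The largest fitted differences were those of Nlrc5 and Psmb9 and the smallest that of Tapbp. In bulk RNA, fewer cells of a type and less RNA per cell cannot be told apart, and this holds for every difference given here.

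**Figure D1:**
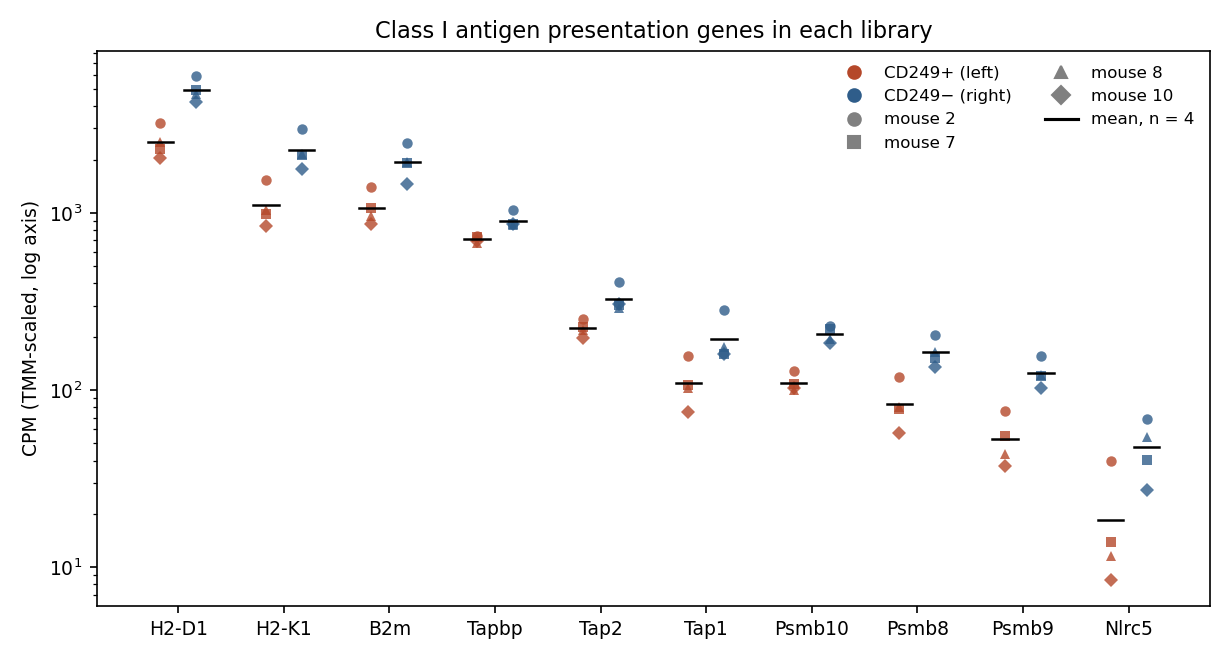
TMM-scaled CPM (log axis) of the 10 class I presentation genes in each of the 8 libraries, CD249+ left of CD249− for each gene. Symbols mark the mouse and bars the mean of 4 libraries. The fractions separate for every gene except Nlrc5, and mouse 2 (circles) is the highest in both fractions for all 10.

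The heavy chain genes and their partner form the surface molecule, and each was lower in CD249+ cells by 1.81- to 2.06-fold. H2-K1 (ENSMUSG00000061232.15, chromosome 17, 33996017 to 34000347, minus strand, GRCm38) gave 1542, 980.3, 1041 and 842 CPM in the CD249+ fraction of mice 2, 7, 8 and 10, against 2987, 2119.8, 2151 and 1759 CPM in CD249− cells. The highest CD249+ library, that of mouse 2, stayed below the lowest CD249− library, that of mouse 10. The fit put H2-K1 2.06-fold lower in CD249+ cells (log2 fold change -1.04, SE 0.067, edgeR adjusted p = 1.24e-05). H2-D1 (ENSMUSG00000073411.11, chromosome 17, 35262730 to 35267499, plus strand) gave 3221, 2306, 2526 and 2041 CPM in CD249+ cells, against 5927, 4931, 4709.6 and 4226 CPM in CD249− cells. It was 1.97-fold lower, again with no overlap (log2 fold change -0.98, SE 0.072, edgeR adjusted p = 2.16e-05). B2m (ENSMUSG00000060802.8, chromosome 2, 122147686 to 122153083, plus strand) gave 1396, 1061, 964 and 866 CPM in CD249+ cells, against 2466, 1917, 1928 and 1465 CPM in CD249− cells. Its difference was 1.81-fold, and the libraries of mouse 10 were the lowest in both fractions (log2 fold change -0.86, SE 0.071, edgeR adjusted p = 3.84e-05). B2m lies within the annotated span of Patl2 on the opposite strand, and Patl2 had a mean of 0.375 counts per library.

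Per unit of length, B2m, H2-D1 and H2-K1 had the highest mean levels of the set, in that order. As TPM (transcript share after division by the joined length of all annotated exons in GENCODE M21) B2m averaged 4226 ± 1088 in CD249+ cells and 8099 ± 1705 in CD249− cells (SD, n = 4 each). H2-D1 averaged 3321 ± 821 TPM in CD249+ cells and 6875 ± 995 TPM in CD249− cells, and H2-K1 averaged 1275 ± 414 TPM in CD249+ and 2749.8 ± 640.4 TPM in CD249− cells. By mean TPM, B2m ranked 16 among all genes in CD249+ cells and 3 in CD249− cells, H2-D1 ranked 27 and 6, and H2-K1 ranked 86 and 31. H2-D1 transcripts outnumbered H2-K1 transcripts 2.38 to 2.76 times in CD249+ libraries and 2.26 to 2.74 times in CD249− libraries, ranges that overlap. B2m transcripts stood at 0.841 to 1.00 times the sum of the 2 heavy chains in CD249+ libraries and 0.762 to 0.876 times in CD249− libraries. The lengths used were 860 bases for B2m, 2579 for H2-D1 and 2938 for H2-K1. They join all annotated exons and need not be those of the expressed transcripts, and these ratios and ranks depend on them. Estimated counts of H2-K1, H2-D1, Tap1, Tap2 and Psmb9 were not whole in some library, so reads shared with similar or overlapping genes were divided among them, and the split between heavy chain genes is uncertain.

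The peptide transporter and its adaptor showed the smallest differences. Tap1 (ENSMUSG00000037321.17, chromosome 17, 34187553 to 34197225, plus strand) gave 156, 107, 102 and 74.9 CPM in CD249+ cells, against 284, 159.6, 174 and 159.9 CPM in CD249− cells. The CD249+ library of mouse 2 lay just under the lowest CD249− library (log2 fold change -0.82, SE 0.094, edgeR adjusted p = 0.000227). Tap2 (ENSMUSG00000024339.12, chromosome 17, 34203527 to 34216321, plus strand) gave 253, 226, 218 and 197 CPM in CD249+ cells, against 406, 301, 290.4 and 308 CPM in CD249− cells. It was lower by 1.45-fold (log2 fold change -0.54, SE 0.078, edgeR adjusted p = 0.000892). Tapbp (ENSMUSG00000024308.14, chromosome 17, 33915899 to 33929292, plus strand) gave 745, 731, 677 and 695 CPM in CD249+ cells, against 1034, 866, 854 and 863 CPM in CD249− cells. This 1.27-fold difference was the smallest of the set (log2 fold change -0.34, SE 0.070, edgeR adjusted p = 0.00569), and its call was lost within mice 7 and 8 alone (adjusted p = 0.0569) and within mice 2 and 10 alone (adjusted p = 0.0895). These pairs of mice were formed because haemoglobin transcripts summed to 129 to 502 CPM in the libraries of mice 7 and 8 and 12.1 to 26.8 CPM in those of mice 2 and 10. Within each pair of mice all 10 members were lower in CD249+ cells and 9 were called. Of all genes tested, 12.2% were called lower in mice 7 and 8 alone and 9.05% in mice 2 and 10 alone. Tapbp overlaps Zbtb22 on the same strand, and its estimated counts were whole in every library. These libraries do not mark strand, so reads where genes on opposite strands overlap cannot be told apart by strand.

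**Figure D2:**
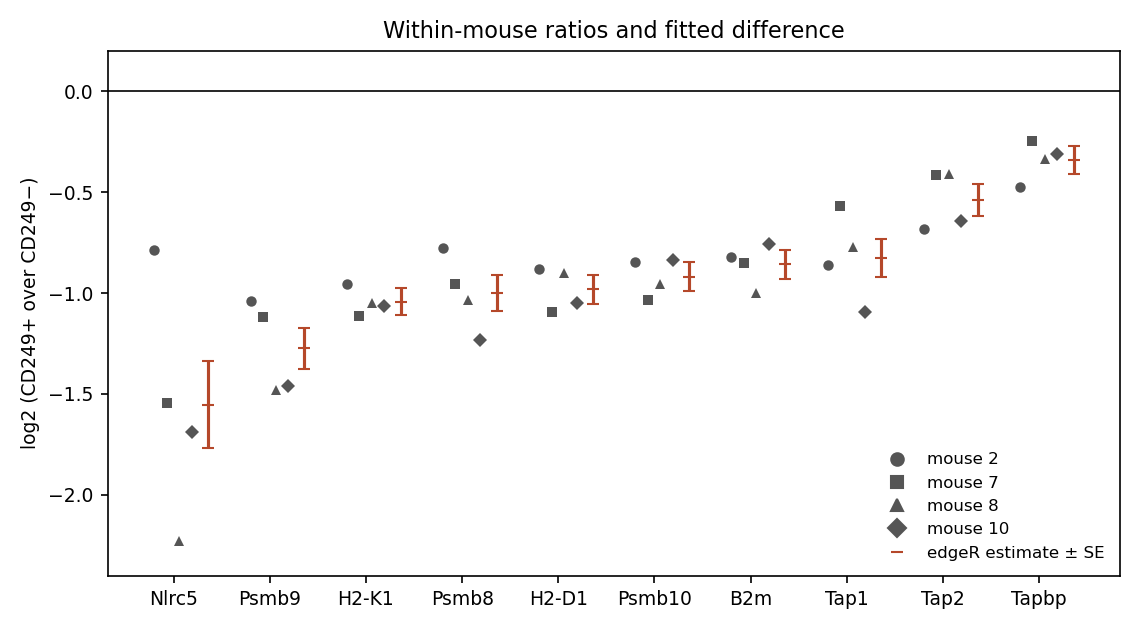
Log2 ratio of CD249+ over CD249− CPM within each mouse (grey symbols) and the edgeR estimate ± SE (red) for each gene, ordered by the estimate. All 40 ratios are below 0, and Nlrc5 spans the widest range, from -0.79 in mouse 2 to -2.23 in mouse 8.

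The 3 inducible proteasome subunits were lower in CD249+ cells by 1.89-fold for Psmb10 to 2.42-fold for Psmb9. Psmb8 (ENSMUSG00000024338.14, chromosome 17, 34197721 to 34201454, plus strand) gave 119, 78.1, 79.8 and 57.2 CPM in CD249+ cells, against 204, 152, 164 and 135 CPM in CD249− cells (log2 fold change -1.0004, SE 0.090, edgeR adjusted p = 5.74e-05). Psmb9 (ENSMUSG00000096727.2, chromosome 17, 34181987 to 34187764, minus strand) gave 76.0, 55.0, 43.4 and 37.2 CPM in CD249+ cells, against 157, 119, 121 and 102 CPM in CD249− cells. It had the largest difference of the 3 (log2 fold change -1.27, SE 0.10, edgeR adjusted p = 3.17e-05). Psmb9 and Tap1 are transcribed away from each other from RefSeq starts 226 bases apart, and their annotated spans overlap by 212 bases, so some reads of that stretch could belong to either. Psmb10 (ENSMUSG00000031897.8, chromosome 8, 105935735 to 105938444, minus strand) gave 128, 108, 100.4 and 103 CPM in CD249+ cells, against 229.9, 222, 195 and 184 CPM in CD249− cells (log2 fold change -0.92, SE 0.072, edgeR adjusted p = 2.98e-05). None of the 3 overlapped between fractions.

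Of the standard subunits that they replace, Psmb5 and Psmb6 were not called and Psmb7 was lower. Psmb5, the counterpart of Psmb8, averaged 68.0 ± 4.99 CPM in CD249+ and 71.5 ± 4.76 CPM in CD249− cells (SD, n = 4 each, log2 fold change -0.072, SE 0.087, edgeR adjusted p = 0.565). Psmb6, the counterpart of Psmb9, averaged 111 ± 3.62 CPM in CD249+ and 112 ± 5.93 CPM in CD249− cells (log2 fold change -0.022, edgeR adjusted p = 0.838). Psmb7, the counterpart of Psmb10, fell by 0.28 on the log2 scale (SE 0.092, edgeR adjusted p = 0.046), a call that was lost when any single mouse was left out, with DESeq2 size factors and with no low-count filter.

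The ratio of inducible to standard subunit within a library does not depend on how libraries are scaled. For Psmb8 over Psmb5 it was 1.67, 1.07, 1.198 and 0.928 in CD249+ cells of mice 2, 7, 8 and 10, against 2.81, 2.04, 2.54 and 1.81 in CD249− cells. For Psmb9 over Psmb6 it was 0.688, 0.506, 0.403 and 0.321 in CD249+ cells, against 1.47, 1.08, 1.09 and 0.849 in CD249− cells. For Psmb10 over Psmb7 it was 2.92, 2.32, 2.13 and 2.54 in CD249+ cells, against 4.403, 3.83, 3.76 and 3.43 in CD249− cells. In CD249+ cells the log2 ratio fell by 0.93, 1.25 and 0.64, in the order given, in all 4 mice and with no overlap (two-sided exact permutation test, p = 0.0286 for each, adjusted p = 0.0286 over the 3 ratios). That is the smallest p that 4 libraries against 4 can give, and sign flips within the 4 mice cannot go below 0.125, the value they gave for each ratio.

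**Figure D3:**
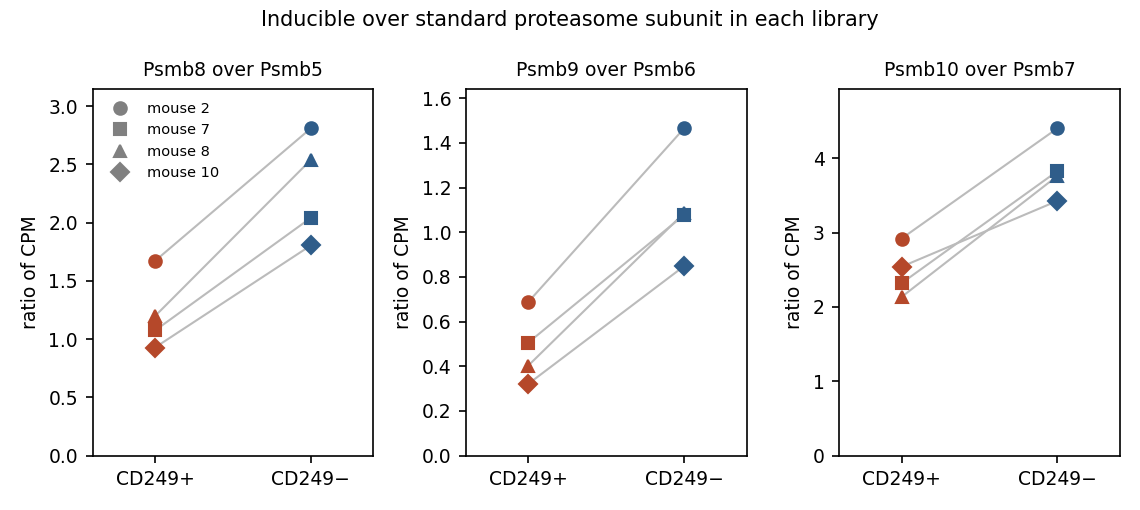
Ratio of CPM of each inducible proteasome subunit to its standard counterpart in each library (y axis from 0), with grey lines joining the CD249+ and CD249− libraries of a mouse. In each panel the 4 CD249+ libraries lie below the 4 CD249− libraries.

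Nlrc5, the class I transactivator, was the least abundant member and varied most between mice. Nlrc5 (ENSMUSG00000074151.12, chromosome 8, 94434356 to 94527272, plus strand) gave 39.9, 13.9, 11.5 and 8.43 CPM in the CD249+ fraction of mice 2, 7, 8 and 10, against 68.7, 40.5, 54.1 and 27.2 CPM in CD249− cells. The CD249+ library of mouse 2 exceeded the CD249− library of mouse 10, so the groups overlapped although each mouse was lower in CD249+ cells. The fit gave a 2.93-fold difference (log2 fold change -1.55, SE 0.22, edgeR adjusted p = 0.000687), and without mouse as a block the call was lost (adjusted p = 0.0518).

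Libraries of the same mouse moved together across the set. Mouse 2 had the highest CPM of all 10 members in CD249+ cells and of all 10 in CD249− cells, and mouse 10 had the lowest of 8 members in CD249+ cells and of 7 in CD249− cells. How many of all genes tested show the same order of mice was not counted, so it is not shown to be particular to the members. The median within-mouse log2 ratio of the members was -0.83, -0.996, -0.98 and -1.06 in mice 2, 7, 8 and 10. Pecam1, the gene of the endothelial gate antigen CD31, was also highest in mouse 2, with 959 CPM among its CD249+ and 2031 CPM among its CD249− cells. Ptprc, the gene of CD45, was not: mouse 2 gave 60.9 CPM for its CD249+ cells and 58.2 CPM for its CD249− cells, the lowest CD249− value. Summed endothelial markers were highest in mouse 2 in both fractions (14687 CPM in CD249+ and 32025 CPM in CD249− cells). Summed fibroblast markers were lowest there (16453 CPM in CD249+ and 5829 CPM in CD249− cells). The part of cell make-up in the order of mice was not tested.

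Ratios of the other members to B2m were compared to see whether the set moved in proportion. Log2 ratios to B2m within a library differed by -0.70 for Nlrc5, -0.42 for Psmb9, -0.19 for H2-K1, 0.32 for Tap2 and 0.52 for Tapbp, CD249+ minus CD249−. The differences were -0.14 for Psmb8, -0.12 for H2-D1, -0.061 for Psmb10 and 0.034 for Tap1. After adjustment over the 9 ratios none passed (two-sided exact permutation test, lowest adjusted p = 0.129, with H2-K1 and Psmb9 at an unadjusted p = 0.0286). Sign flips within mouse, which use the pairing, gave a lowest adjusted p of 0.281. A missed threshold does not show that the proportions are alike, and 4 libraries against 4 allow no p under 0.0286.

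Most other class I heavy chains were lower in CD249+ cells as well. Of 20 other class I and class I-like genes that had a row, 16 were tested, and 11 were lower, 2 higher and 3 not called, with a median log2 fold change of -1.10. Of all genes tested, 17.1% were called lower and 19.3% higher. H2-Q7 averaged 249 ± 124 CPM in CD249+ and 679 ± 233 CPM in CD249− cells (SD, n = 4 each, log2 fold change -1.50, SE 0.090), and H2-Q6 fell by 1.397. These 2 genes are near-identical copies, and the split of reads between them is uncertain. H2-T23, which encodes the Qa-1 molecule read by natural killer cell receptors, fell by 0.79 and H2-T24 by 1.53. The members that rose do not present peptides to CD8 T cells. Mr1, which shows microbial vitamin metabolites to MAIT cells, averaged 77.0 ± 13.8 CPM in CD249+ and 34.9 ± 4.41 CPM in CD249− cells (log2 fold change 1.13, edgeR adjusted p = 0.000167). Fcgrt, the neonatal Fc receptor for IgG and albumin, averaged 329 ± 50.2 CPM in CD249+ and 182 ± 45.4 CPM in CD249− cells (log2 fold change 0.87, edgeR adjusted p = 0.000222).

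Of 12 tested genes that load and trim peptides, 2 were lower, 5 higher and 5 not called, with a median of 0.20. The share lower is close to the 17.1% of all genes, and 19.3% of all genes were higher. Tapbpl, the tapasin-like peptide editor TAPBPR, averaged 68.5 ± 14.2 CPM in CD249+ and 110.4 ± 24.8 CPM in CD249− cells (SD, n = 4 each, log2 fold change -0.68, edgeR adjusted p = 0.000183). Erap1, the aminopeptidase that trims peptides in the endoplasmic reticulum, fell by 0.33 (edgeR adjusted p = 0.0482), a call lost without mouse 2, 8 or 10, with DESeq2 size factors and without the block. The chaperone gene Hspa5 (BiP) rose by 0.66, the translocon gene Sec61a1 by 0.55, the glucosidase gene Ganab by 0.42 and the disulfide isomerase gene Pdia3 by 0.31. With library size as the only scaling, or without the block, 3 genes of the list were higher. The Pdia3 call was lost with library size as the only scaling and without the block.

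Among 4 proteasome activator genes the pair that interferon gamma induces was lower and the others were not called. Of all genes tested, 17.1% were called lower and 36.5% in either direction. Psme1 averaged 114 ± 11.9 CPM in CD249+ and 181 ± 9.35 CPM in CD249− cells, and Psme2 averaged 101 ± 6.77 CPM in CD249+ and 154 ± 10.5 CPM in CD249− cells (SD, n = 4 each). Their log2 fold changes were -0.66 (SE 0.084, edgeR adjusted p = 0.000408) and -0.61 (SE 0.068, edgeR adjusted p = 0.000196). Of 19 standard proteasome core and assembly genes 9 were lower and 10 not called, at a median of -0.24, beside 17.1% of all genes called lower. Pomp, the proteasome maturation protein, fell by 0.56, the core subunit genes Psma7 and Psma3 by 0.48 and 0.31, and the assembly chaperone gene Psmg4 by 0.63. The Psma3 call was lost without mouse 8 and that of Psmg4 without mouse 7. The core list is sensitive to the mice used, with 5 lower without mouse 2 and 4 without mouse 7, 8 or 10. Of all genes tested, 12.9% to 14.5% were called lower when a mouse was left out. Within either pair of mice the share of the core list called lower was close to that of all genes. Of 8 cytosolic peptidases only Npepps was called, higher by 0.40 (edgeR adjusted p = 0.0118, lost without mouse 8).

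Of 23 genes for class I promoter factors and interferon gamma signalling, 6 were lower, 3 higher and 14 not called, with a median of -0.15. The share called is close to the 36.5% of all genes, so the count is not a result about this list. Nfkb1 fell by 0.63, Irf2 by 0.86 and Irf9 by 0.50. Irf8, a factor of myeloid cells, averaged 121 ± 18.2 CPM in CD249+ and 55.6 ± 23.01 CPM in CD249− cells (SD, n = 4 each, log2 fold change 1.19, edgeR adjusted p = 0.000182). The interferon signalling inhibitor Socs1 was higher by 0.47 and Nfyc, an NF-Y subunit, by 0.35. The Socs1 and Nfyc calls were lost without mouse 7, without mouse 10 and without the block, and that of Nfyc also with library size as the only scaling and with no low-count filter. Irf1 averaged 480.0 ± 183 CPM in CD249+ and 527 ± 144 CPM in CD249− cells and was not called (log2 fold change -0.18, edgeR adjusted p = 0.18). Rfx5, part of the complex that Nlrc5 acts through, averaged 17.7 ± 4.21 CPM in CD249+ and 17.3 ± 1.52 CPM in CD249− cells (edgeR adjusted p = 0.991), and was not called.

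Class II presentation genes, which serve CD4 T cells, were lower too. Of 12 tested, 9 were lower and 3 not called, at a median of -0.94, and 4 were lower without the block. Of all genes tested, 17.1% were called lower with the block and 13.9% without it. Only 1 of the 12 did not overlap between the fractions, against 9 of the 10 class I members and 15.8% of all genes. H2-Ab1 averaged 315 ± 80.6 CPM in CD249+ and 664 ± 168 CPM in CD249− cells (SD, n = 4 each), without overlap. H2-Eb1, H2-Aa and H2-DMa fell by 0.94, 0.98 and 1.03, each with overlap between the fractions.

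**Figure D4:**
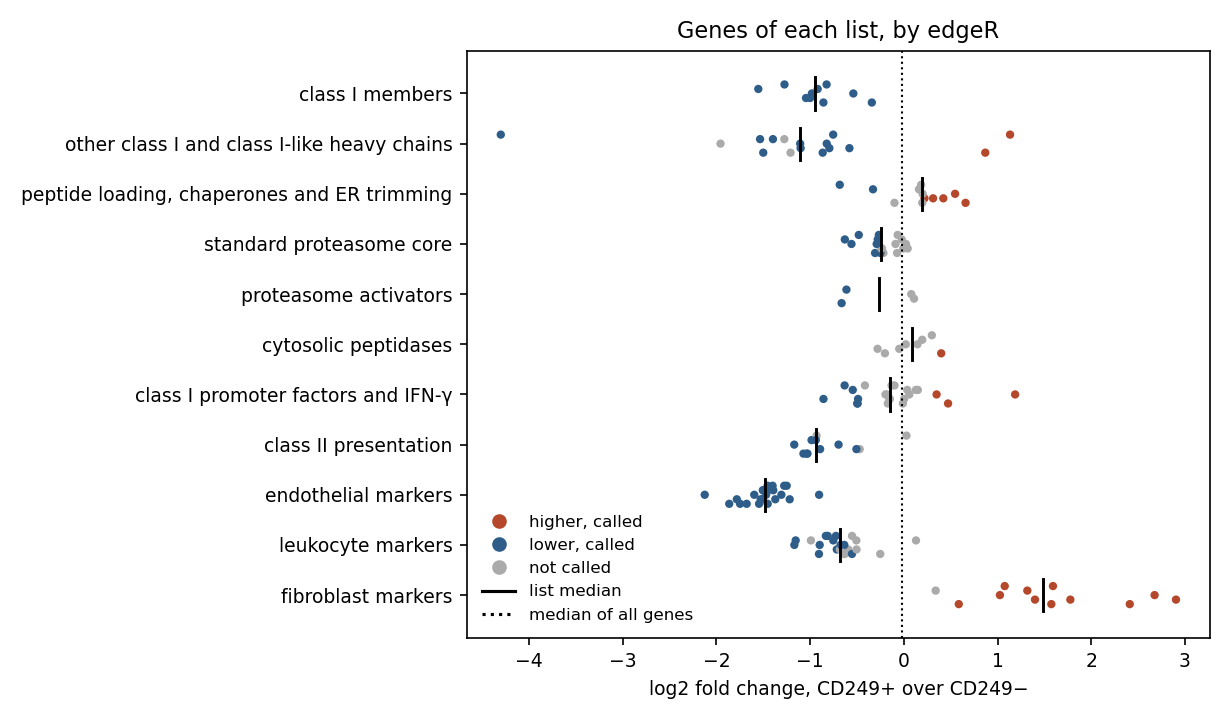
Log2 fold change (CD249+ over CD249−) of each tested gene, by list, coloured by its edgeR call, with list medians as bars and the median of all genes as a dotted line. The class I members have a median of -0.95, between those of leukocyte (-0.68) and endothelial (-1.48) markers, while fibroblast markers have a median of 1.49.

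Markers of endothelium, most of those of platelets and red cells and part of the leukocyte and mesothelial markers were called lower in CD249+ cells. No epithelial, pericyte or fibroblast marker was called lower. All 24 endothelial markers were lower in CD249+ cells, with the sums given above, although the sort removed cells with CD31. Beside these and the counts below, 17.1% of all genes tested were called lower and 19.3% higher. No endothelial marker was at 0. Of 24 leukocyte markers 13 were lower and 11 not called, and each overlapped between the fractions. Their sums were 1437 to 3678 CPM in CD249+ libraries and 1702 to 3428 CPM in CD249− libraries. The sum was higher in CD249+ cells in mouse 2 (1984 against 1702 CPM) and mouse 10 (3678 against 2154 CPM), and lower in mice 7 and 8. Ptprc fell by 0.90 (edgeR adjusted p = 0.0126, lost without mouse 7 or 8 and without the block). Of 12 fibroblast markers 11 were higher and 1 not called. Epithelial markers summed to 10538 CPM in the CD249+ library of mouse 10, to 590.2 to 1218 CPM in the other CD249+ libraries and to 290.0 to 972 CPM in CD249− libraries (5 higher of 12), mesothelial ones to 96.2 to 119 CPM in CD249+ and 89.2 to 237 CPM in CD249− libraries (5 lower, 1 higher of 7), and pericyte and smooth muscle ones to 1159 to 2059 CPM in CD249+ and 245 to 836 CPM in CD249− libraries (10 higher of 11). In mouse 2 the mesothelial sum was higher in CD249+ cells (119 against 89.2 CPM), and in the other mice it was lower. Platelet and red cell markers summed to 39.4 to 436 CPM in CD249+ libraries and 145 to 1217 CPM in CD249− libraries (9 lower of 10). Immediate early genes, which tissue digestion induces, summed to 15291 to 32366 CPM in CD249+ libraries and 10709 to 16457 CPM in CD249− libraries (11 higher of 12). The part of any of these in the class I difference was not tested.

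B2m was also set against the genes of the gate antigens within each library. The ratio of B2m to Pecam1 was 1.46, 2.37, 1.66 and 1.89 in CD249+ cells of mice 2, 7, 8 and 10, against 1.21, 1.258, 1.196 and 0.977 in CD249− cells. The log2 ratio was 0.65 higher in CD249+ cells in all 4 mice, without overlap (two-sided exact permutation test, p = 0.0286, adjusted p = 0.0571 over 2 ratios, so not called). The ratio of B2m to Ptprc ran from 10.1 to 24.4 in CD249+ libraries and from 9.69 to 42.3 in CD249− libraries, and its log2 mean differed by 0.03 (exact permutation p = 0.914).

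The genes whose levels followed the members most closely were Tbx3, Fbxw2, Eng, Sox7 and Psme2b, with Pearson r of 0.997, 0.995, 0.993, 0.992 and 0.991 to the mean standardised log2 CPM of the members over 8 libraries. The 8 points fall into 2 fractions and share libraries within mice, so these values describe the samples and carry no test. Tbx3 (a T-box transcription factor), the F-box gene Fbxw2, the endothelial genes Eng (endoglin) and Sox7, and Psme2b had log2 fold changes of -0.92, -0.47, -1.28, -1.255 and -1.11. Psme2b is a close copy of Psme2, and the split of reads between them is uncertain.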

How the data were processed

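Per the labels' protocols, 10 ng of RNA per sample went into oligo(dT)-primed SMART-Seq V4 cDNA synthesis, Nextera XT libraries and single 75 bp reads. The deposited table holds estimated counts (expected counts, 12.0% not whole) per gene, with 92 spike-in rows at 0 left out. Tools listed, with no roles, are STAR 2.6.1, bcl2fastq 2.20, R 3.6.3, RSEM 1.2.28 and DESeq2 1.26.0, per the submitters' processing notes. These give the human build GRCh38, and the mouse build was not given in the sources used here. Coordinates are from GENCODE M21 (GRCm38), where 99.0% of identifiers were found ignoring version.

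Counts were rounded, filtered with filterByExpr (14524 of 18552 genes kept), scaled by TMM and tested with edgeR 4.0.16 (R 4.3.3), CD249+ over CD249−, mouse as a block, two-sided, Benjamini-Hochberg adjusted. Each SE of an edgeR fold change was derived from the test, as the absolute log2 fold change divided by the square root of the F statistic. The procedure was tested on simulated data. Libraries of a number share a lung. Their deviations from the fraction means correlated at 0.132 to 0.285 and those of different mice at -0.212 to 0.0515, across genes. Without molecular identifiers, PCR copies are counted as separate reads.

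Alternatives were no block, DESeq2 size factors, library size only, no filter, DESeq2 1.42.0, limma-voom (limma 3.58.1), leaving out each mouse, and the pairs of mice. The members and lists were chosen with earlier results of these data known. Named genes are all members, their standard counterparts, up to 4 called genes per direction and list with the smallest p, Irf1, Rfx5, Erap1, Psme1, Psme2, the gate genes, and the 5 most alike with a mean of at least 10 CPM. H2-M3, TPM levels and the ratios to B2m, Pecam1 and Ptprc were added after values were seen. 6 listed symbols had no row. 1 gene that the rule names is not reported here.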

Additional observations from a re-analysis of the deposited data

Results flagged for a closer look

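In 4 of 102 groups of 4 libraries tested by Dixon's gap test at its 95% level, 1 library stood apart from the other 3. Chance gives about 1 in 20 for independent groups, but these groups share libraries, so the comparison cannot decide. All 4 were libraries of mouse 2. In CD249− cells of mouse 2, Tap1 stood at 284 CPM against 159.6 to 174 CPM in the other mice, Tap2 at 406 CPM against 290.4 to 308 CPM, and Tapbp at 1034 CPM against 854 to 866 CPM. In CD249+ cells of mouse 2, Tapbpl stood at 89.8 CPM against 60.4 to 62.3 CPM. Without mouse 2 the log2 fold changes of Tap1, Tap2 and Tapbp were -0.79, -0.47 and -0.28 and the calls were kept.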

How the results depend on the processing

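All 10 members were below 0 in the log2 fold change under each of 12 alternatives, and 117 of 120 single results kept their call. The 3 exceptions were Nlrc5 without the replicate block (-1.37, adjusted p = 0.0518) and Tapbp in mice 7 and 8 only (-0.26, adjusted p = 0.0569) and in mice 2 and 10 only (-0.39, adjusted p = 0.0895). The share of all genes tested that was called lower ran from 9.05% in mice 2 and 10 only to 21.7% with library size only. Without the replicate block 4468 genes were called (5298 with it), and in the pathway lists 7 were higher (11 with it). Mice 2 and 10 alone gave 3114 calls, 1786 higher and 1328 lower, and 4 higher and 25 lower genes in the pathway lists (11 and 39 with all mice). Fewer mice leave fewer degrees of freedom, and for the other changes the cause was not tested. With exact sign flips within mouse as the block the differences of the proteasome ratios stay -0.93, -1.25 and -0.64 at p = 0.125. Leaving out a mouse gave -0.99 to -0.88 for Psmb8 over Psmb5, -1.31 to -1.19 for Psmb9 over Psmb6 and -0.71 to -0.58 for Psmb10 over Psmb7, each at an exact permutation p = 0.1, the smallest that 3 libraries against 3 allow. Uncalled log2 fold changes near 0 turned sign for Epcam (0.10 without the block, 0.15 with limma-voom, -0.50 to 0.36 without 1 mouse, 0.69 in mice 2 and 10 only), Rfx5 (-0.094 with library size only, -0.10 to 0.17 without 1 mouse, -0.30 in mice 2 and 10 only), Psmb5 and Irf1 (0.039 and 0.048 in mice 7 and 8 only). List counts that moved by more than 1.5 times without the block were 3 peptide loading genes higher and 1 lower (5 and 2 with it), 1 promoter factor higher (3) and 4 class II genes lower (9). With library size only the median of all genes was -0.12 and that of the members -1.05, 3 peptide loading genes were higher and 10 promoter factors lower (6 with TMM). In mice 7 and 8 only, and in mice 2 and 10 only, 2 standard proteasome genes of the 19 in the list were lower (9 in all mice). Of all genes tested, 12.2% and 9.05% were called lower in those pairs. The Irf9 call was lost in mice 7 and 8 only, and those of Sec61a1 and Ganab in mice 2 and 10 only.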
